A study of Mus musculus with 10 samples.

Results

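The transcription factors and nuclear cofactors that turn a Wnt signal into gene expression were examined in cortical cells of the mouse embryo with reduced Chd8, a chromatin remodeler. The group holds 10 genes of the 23235 in each expression table, taken by gene symbol: the DNA-binding factors Tcf7l1, Tcf7l2 and Lef1, the corepressors Tle1, Tle2, Tle3 and Tle4, and the coactivators Bcl9, Bcl9l and Pygo2. All 10 symbols are in both tables. Constructs with either a control or a Chd8 shRNA, together with GFP, were electroporated in utero into radial glia at embryonic day 13, and GFP-positive cells were sorted from the cortex at embryonic day 15. Every replicate is a pool of cortices of 3 to 5 embryos. A new set holds 3 control and 3 knockdown libraries (replicates 10, 11 and 12), a first set 2 control and 2 knockdown libraries (replicates 1 and 2). The design text counts 3 replicates for Chd8 sh1 and 2 for Chd8 sh2, as many as the sets hold. ShRNA, batch and table change together between the sets, so levels are compared only within a set.

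In canonical Wnt signalling a ligand at the cell surface stops the breakdown of beta-catenin, which then enters the nucleus. There it binds proteins of the TCF/LEF family, which sit on DNA through an HMG box. Without beta-catenin these factors recruit TLE (Groucho) proteins and keep target genes off. With beta-catenin bound, BCL9 or BCL9L joins and in turn holds a Pygopus protein, and transcription rises. Tcf7l1 is mostly known as a repressor and Lef1 mostly as an activator, while Tcf7l2 can act as either. In the embryonic cortex the pathway acts on radial glia, the dividing stem cells, and TLE proteins also serve other repressors such as the Hes factors. CHD8 itself has been described as a partner of beta-catenin.

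Absolute depth is unknown. Relative depth, read from the steps of the lowest FPKM values, was 0.953 to 1.39 times that of the reference control in the new set, and 1, 1.22, 0.525 and 0.529 in first-set controls 1 and 2 and knockdown libraries 1 and 2. Olfactory receptor genes, which cortex does not use, averaged 0.672 and 0.557 FPKM in those 2 knockdown libraries and at most 0.00817 FPKM in the other 8. Chd8 was at 3.59, 3.30 and 4.02 FPKM in new-set controls and 2.09, 1.84 and 1.92 FPKM in knockdown libraries, and at 12.4 and 13.8 against 8.55 and 9.23 FPKM in the first set. With both sets joined Chd8 fell by 0.58 on the log2 scale (SE 0.103, limma adjusted p = 0.00285), and the exact permutation p over 120 regroupings was 0.0167, the smallest possible. Alone, the new set passed (−0.65, SE 0.117, limma adjusted p = 0.0213) and the first set did not (−0.51, SE 0.233, 0.152). The exact permutation p was 0.1 over 20 regroupings in the new set and 0.333 over 6 in the first, the smallest these allow. The markers of cortical progenitors and neurons were high in all libraries, with Fabp7 at 875 FPKM and Neurod6 at 936 FPKM on average in new-set controls. Markers of meninges each averaged under 1 FPKM in every group, and so did those of endothelium and pericytes in the new set.

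Fold changes are on the log2(FPKM + 1) scale, knockdown minus control, and a gene was tested where its mean in the table reached 1 FPKM. Genes with a Benjamini-Hochberg adjusted p under 0.05 over all tested genes are called changed. Among 10 members in the new set 1 fell, Tcf7l1, and 0 rose by limma. Of all 11291 genes tested there 8.99% were called, 5.15% lower and 3.84% higher. An unadjusted p under 0.05 was found for 3 members, against 30.0% of all genes. The first set gave 0 called members of 9 tested by limma, against 23.8% of 12461 genes (13.2% higher and 10.7% lower), and 1 member (Tle2) with an unadjusted p under 0.05, against 39.2%. The joined fit averages the fold changes of both sets: Tcf7l1 and Tcf7l2 fell, 0 members rose and 7 did not pass, against 29.9% of 10827 genes called (20.5% lower and 9.37% higher). There 4 members had an unadjusted p under 0.05, against 42.8% of all genes. Fold changes of the sets differed for 1 of 9 members, Tle2, which was lower in the new set. Of all genes 32.5% differed, 9.98% lower and 22.5% higher in the new set, and at an unadjusted p under 0.05 it was 2 members against 43.9%. With libraries of the same number compared (the replicate block), 2 members were called in the new set against 21.7% of all genes, 2 in the joined fit against 34.1% and 2 for the difference against 36.1%. The shares of members called were near or below those of all genes in each comparison. The members' median fold change was −0.22 for the new and −0.24 for the first set, beside medians of 0.02 and −0.15 over all genes. In the joined fit their median was −0.06, above the −0.11 of all genes.

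Of the TCF/LEF factors Tcf7l1 and Tcf7l2 fell in the joined fit, and Lef1 did not pass where it was tested. Tcf7l1 was at 9.87, 9.70 and 12.9 FPKM in new-set control replicates 10, 11 and 12 and at 7.93, 6.67 and 5.84 FPKM in knockdown replicates 10, 11 and 12. All 3 knockdown values lay below all 3 controls. The means were 10.8 ± 1.78 and 6.82 ± 1.05 FPKM (SD, n = 3 and 3), or 63% of control, a log2 fold change of −0.59 (SE 0.147, limma adjusted p = 0.0451). First-set Tcf7l1 was at 2.86 and 7.07 FPKM in controls 1 and 2 and at 1.41 and 2.86 FPKM in knockdown libraries 1 and 2. Control 1 and knockdown 2 were nearly equal, so the groups overlapped. The first-set fold change of −0.87 (SE 0.411, limma adjusted p = 0.162) did not pass. Averaged over both sets it was −0.73 (SE 0.209, limma adjusted p = 0.0224).

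The new-set call of Tcf7l1 was lost with no filter on low values (limma adjusted p = 0.0843). It also rests on all libraries but control 11: without control 10 or 12 or knockdown 10, 11 or 12 the adjusted p was 0.0843, 0.122, 0.0672, 0.145 and 0.107. The joined call was lost without first-set control 2 (limma adjusted p = 0.0809) or knockdown 1 (0.0904), and its fold change without control 2 was −0.47.

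Tcf7l2 fell in the joined fit, and it was the only member whose knockdown values lay below the controls in both sets. Its new-set values were 3.23, 2.61 and 4.67 FPKM in controls 10, 11 and 12 and 2.49, 1.95 and 2.23 FPKM in knockdown libraries. The first-set values were 7.14 and 9.47 FPKM in controls and 5.44 and 5.38 FPKM in knockdown libraries. Of all genes tested in both sets 7.60% were likewise lower in both without overlap, and 3.57% higher, which 0 members were. The means went from 3.50 ± 1.05 to 2.22 ± 0.269 FPKM (SD, n = 3 and 3) and from 8.31 ± 1.65 to 5.41 ± 0.0395 FPKM (n = 2 and 2), or 63.5% and 65.1% of control. Neither set passed alone (−0.46, SE 0.176, limma adjusted p = 0.126, and −0.53, SE 0.258, 0.174). Joined, the fold change was −0.49 (SE 0.143, limma adjusted p = 0.024). That call was lost when libraries were rescaled by a median of ratios (−0.42, limma adjusted p = 0.0525) and without new-set knockdown 11 (0.0553), first-set control 2 (0.0853) or first-set knockdown 1 (0.0525).

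Lef1 varied within the new-set knockdown group. It was at 4.05, 4.73 and 4.74 FPKM in new-set controls and at 4.74, 2.38 and 2.61 FPKM in knockdown replicates 10, 11 and 12. Knockdown 10 was thus at the control level, and the other 2 knockdown libraries lay below every control. The fold change was −0.42 (SE 0.202, limma adjusted p = 0.204). First-set Lef1 was at 0.464 and 1.44 FPKM in controls and at 0.588 and 1.17 FPKM in knockdown libraries. Its mean there was under 1 FPKM, so it was not tested, and the olfactory receptor level of the same knockdown libraries was 0.672 and 0.557 FPKM. Tcf7, the remaining gene of the family and named here after its values were seen, averaged under 1 FPKM in all 4 groups and was not tested.

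**Figure D1:**
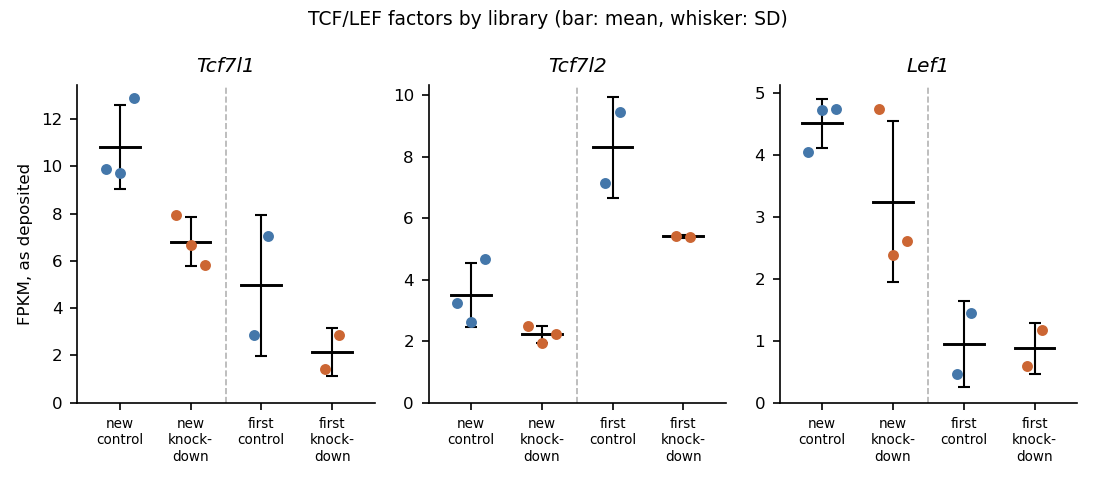
FPKM of Tcf7l1, Tcf7l2 and Lef1 in each library (points), with the group mean (bar) and SD (whisker), by arm in the new set (n = 3 and 3) and the first set (n = 2 and 2). Tcf7l2 knockdown libraries lie below the controls in both sets, Tcf7l1 in the new set, and Lef1 has 1 knockdown library at the control level.

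The promoters of the 2 members that fell in the joined fit are shown because TCF/LEF proteins are known to act on genes of their own pathway. They come from RefSeq (GRCm38.p6), are 300 bases long and end just after an annotated start. They were matched by symbol, and coordinates of this build are not those of the mm9 alignments. Capitals mark CTTTG, the core that HMG boxes of this family read, or CAAAG, the same core on the other strand. Tcf7l1 lies at chr6:72788996-72789295 on the minus strand, and Tcf7l2 has a first start in chr19:55741560-55741859 and an internal start in chr19:55895071-55895370, both on the plus strand.
Tcf7l1: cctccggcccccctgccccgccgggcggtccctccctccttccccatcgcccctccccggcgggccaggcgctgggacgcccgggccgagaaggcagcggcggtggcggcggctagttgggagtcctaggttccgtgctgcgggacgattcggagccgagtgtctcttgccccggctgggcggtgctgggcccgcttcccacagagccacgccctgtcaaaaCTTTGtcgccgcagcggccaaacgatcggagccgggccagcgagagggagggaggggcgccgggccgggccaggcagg
Tcf7l2, first start: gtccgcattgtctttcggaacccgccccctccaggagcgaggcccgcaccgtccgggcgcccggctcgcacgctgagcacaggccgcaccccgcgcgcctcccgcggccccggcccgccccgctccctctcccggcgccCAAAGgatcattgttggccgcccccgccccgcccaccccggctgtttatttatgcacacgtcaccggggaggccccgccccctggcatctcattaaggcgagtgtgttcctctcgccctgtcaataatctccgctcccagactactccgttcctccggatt
Tcf7l2, internal start: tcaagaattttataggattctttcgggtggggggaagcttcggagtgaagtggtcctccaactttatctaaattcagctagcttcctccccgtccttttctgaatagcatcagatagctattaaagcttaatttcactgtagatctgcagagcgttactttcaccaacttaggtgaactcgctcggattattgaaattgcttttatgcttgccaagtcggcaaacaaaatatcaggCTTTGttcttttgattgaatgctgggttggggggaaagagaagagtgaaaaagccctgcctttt

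Each of these 3 windows holds the core once, at bases 223 to 227, 140 to 144 and 237 to 241. Fuller forms, the core followed by AA, AT, TA or TT, were also searched on both strands. Of the 3 windows only the internal Tcf7l2 one held such a form, CTTTGTT at bases 237 to 243. Of all 32851 promoter windows of this length 53.9% held the core and 16.9% a fuller form. Among the 16 windows of 9 members the numbers were 8 and 2, the other fuller form being in 1 of the Lef1 windows. Bcl9l had no entry. GC content was 75.3% in the Tcf7l1 window, 70% at the first Tcf7l2 start and 42% at the internal one. FPKM are summed over a gene's transcripts, so use of either Tcf7l2 start cannot be read from them.

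Of the 4 TLE corepressors 0 passed by limma in either set, and Tle2 alone had a difference between sets that passed. Tle1 was the most abundant of the 4 in the new set, at 37.9, 34.6 and 32.4 FPKM in controls and 42.6, 37.7 and 33.6 FPKM in knockdown libraries. Its groups overlapped (0.11, SE 0.108, limma adjusted p = 0.513). The first-set values were 7.15 and 8.68 FPKM in controls and 6.04 and 7.02 FPKM in knockdown libraries (−0.24, SE 0.252, limma adjusted p = 0.504). The first-set knockdown values lay just below the controls.

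Tle2 was the 1 member whose fold change differed between the sets. New-set values were 4.26, 4.26 and 3.05 FPKM in controls and 3.17, 2.50 and 3.46 FPKM in knockdown libraries, where the groups overlapped. First-set values were 1.31 and 2.10 FPKM in controls and 3.56 and 4.37 FPKM in knockdown libraries, all higher. The means there were 1.71 ± 0.559 and 3.97 ± 0.575 FPKM (SD, n = 2 and 2), or 232% of control. The new-set fold change of −0.26 (SE 0.154, limma adjusted p = 0.282) and the first-set one of 0.88 (SE 0.27, 0.0528) did not pass. The difference between sets was −1.15 (SE 0.279, limma adjusted p = 0.0104). First-set Tle2 passed once the libraries were rescaled (limma adjusted p = 0.0386) or with no intensity trend (0.047). The first-set knockdown libraries are those with reads over silent genes. With that level subtracted the Tle2 difference was −0.96 (limma adjusted p = 0.0263) and its first-set fold change 0.69 (0.124). Tle2 overlaps Tle6 in the RefSeq annotation, and their reads cannot be told apart where they overlap. Tle6, named for that overlap, averaged at most 0.643 FPKM in any group.

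Tle3 had the widest spread, relative to its mean, of the 10 members among new-set controls. It was at 11.1, 5.85 and 17.5 FPKM in control replicates 10, 11 and 12 and at 9.27, 6.68 and 12.4 FPKM in knockdown replicates 10, 11 and 12. Replicate 11 was the lowest and replicate 12 the highest in both groups, and the groups overlapped (−0.18, SE 0.345, limma adjusted p = 0.753). First-set Tle3 was at 11.5 and 10.2 FPKM in controls and at 14.4 and 13.3 FPKM in knockdown libraries. These did not overlap, and the fold change of 0.33 (SE 0.23, limma adjusted p = 0.315) did not pass.

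Tle4, which in the cortex is also known as a marker of deep-layer neurons, had opposite signs in the sets. New-set Tle4 was at 11.6, 13.2 and 14.0 FPKM in controls and at 14.0, 21.6 and 18.2 FPKM in knockdown replicates 10, 11 and 12. Knockdown 10 touched the highest control, and within each replicate number the knockdown value was higher, by 1.20, 1.64 and 1.30 times. The fold change was 0.42 (SE 0.155, limma adjusted p = 0.114). With the replicate block Tle4 rose (limma adjusted p = 0.0376). First-set Tle4 was at 4.04 and 6.71 FPKM in controls and at 3.06 and 4.29 FPKM in knockdown libraries, which overlapped (−0.43, SE 0.309, limma adjusted p = 0.335). The difference between sets was 0.85 (SE 0.316, limma adjusted p = 0.0585), or 0.0183 with the replicate block in both sets and 0.0642 with it in the new set only. It also passed with the silent-gene level subtracted (1.06, limma adjusted p = 0.0281) and without new-set knockdown 10 (0.0405), first-set control 1 (0.0237) or first-set knockdown 2 (0.0368).

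**Figure D2:**
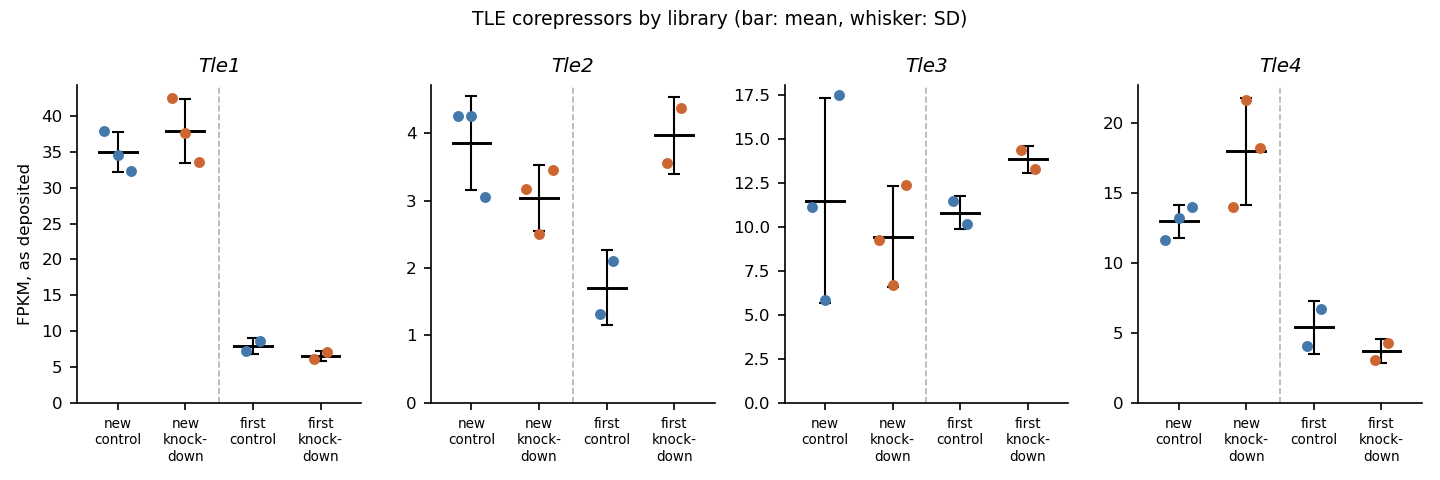
FPKM of Tle1, Tle2, Tle3 and Tle4 in each library (points), with group mean (bar) and SD (whisker), for the same 4 groups (n = 3, 3, 2 and 2). Tle2 knockdown libraries are above the controls in the first set and overlap them in the new set, and Tle3 spans 5.85 to 17.5 FPKM among new-set controls.

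Among the coactivators 0 members passed by limma in either set, and 0 had an unadjusted p under 0.05 there. Bcl9, the adaptor that links beta-catenin to Pygopus, was at 4.24, 3.05 and 3.73 FPKM in new-set controls and at 3.39, 3.83 and 3.63 FPKM in knockdown libraries. These overlapped (−0.01, SE 0.13, limma adjusted p = 0.964). The first set had it at 8.53 and 7.26 FPKM in controls and at 2.72 and 6.31 FPKM in knockdown libraries 1 and 2, all lower (−0.77, SE 0.357, limma adjusted p = 0.157). Most of that fold change was in knockdown 1. With both sets joined Bcl9 did not pass (−0.39, SE 0.173, limma adjusted p = 0.11). Without knockdown 2 the joined fold change was −0.63, but only the low knockdown 1 was then left in its group, so no call is drawn from it.

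Bcl9l, the second adaptor, was at 3.87, 2.33 and 5.18 FPKM in new-set controls and at 2.74, 2.26 and 3.76 FPKM in knockdown libraries (−0.26, SE 0.237, limma adjusted p = 0.478). As for Tle3, replicate 11 was the lowest and replicate 12 the highest in both groups. First-set values were 2.19 and 2.91 FPKM in controls and 2.91 and 2.95 FPKM in knockdown libraries, which differed by less than the spread of the controls (0.15, SE 0.251, limma adjusted p = 0.674). Its gene overlaps Cxcr5, which averaged at most 0.639 FPKM in any group.

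Pygo2, which reads methylated histone H3 through its PHD finger, had groups that overlapped in both sets. It was at 38.0, 31.2 and 35.5 FPKM in new-set controls and at 41.2, 38.0 and 35.3 FPKM in knockdown libraries (0.13, SE 0.1, limma adjusted p = 0.414). First-set values were 5.75 and 9.07 FPKM in controls and 8.43 and 6.20 FPKM in knockdown libraries (−0.000658, SE 0.301, limma adjusted p = 0.999).

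**Figure D3:**
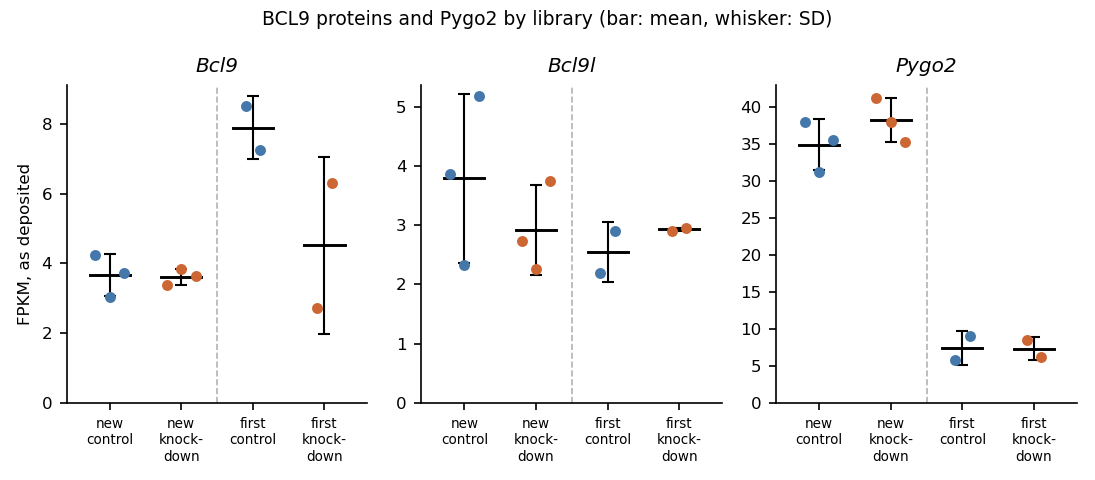
FPKM of Bcl9, Bcl9l and Pygo2 in each library (points), with group mean (bar) and SD (whisker), for the same 4 groups (n = 3, 3, 2 and 2). Control and knockdown libraries overlap in the new set for all 3 genes, and first-set Bcl9 shows 1 low knockdown library at 2.72 FPKM.

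**Figure D4:**
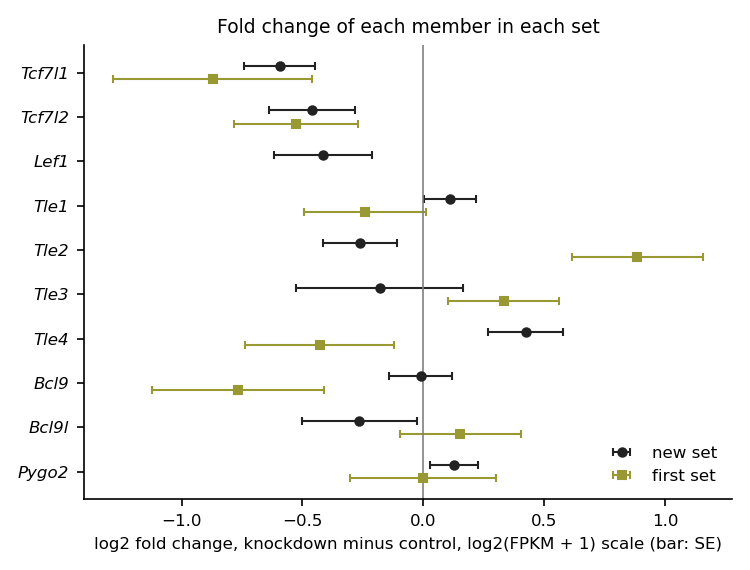
Log2 fold change (knockdown minus control, log2(FPKM + 1) scale) of each member in the new set (circles) and the first set (squares), with SE from limma. Tcf7l1 and Tcf7l2 are below 0 in both sets, Tle2 and Tle4 have opposite signs, and Lef1 was tested in the new set only.

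Groups did not overlap for 2 of 10 members in the new set, both lower, against 35.7% of all genes (17.1% lower and 18.6% higher). For the first set it was 6 of 9, of which 3 were lower and 3 higher, against 67.8% (40.4% and 27.4%). By level Tle1 and Pygo2 held the first 2 places among the members in every new-set library, and Tle3 was first in every first-set library. Below them Tcf7l1, Tle3 and Tle4 took places 3 to 5 in the new set. The 5 lowest there, Tcf7l2, Lef1, Tle2, Bcl9 and Bcl9l, changed places from library to library, and control means of 3.50 to 4.51 FPKM lie within the spread between replicates. Lef1 was the lowest first-set member in every library.

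FPKM are per transcript length, so each family's sum can be split into shares within a library. Tcf7l1 made up 57.4% ± 0.436 (SD, n = 3) of the TCF/LEF sum in new-set controls and 55.9% ± 4.28 in knockdown libraries. Its share differed by less than the spread between knockdown replicates, while the sum went from 17.2, 17.0 and 22.3 FPKM in controls to 15.2, 11.003 and 10.7 FPKM in knockdown libraries. First-set Tcf7l2 held most of the sum, 60.5% ± 11.01 (n = 2) in controls and 65.1% ± 11.3 in knockdown libraries, and the sum went from 10.5 and 17.98 FPKM to 7.43 and 9.41 FPKM. These are shares of the values as deposited. With the silent-gene level subtracted the first-set knockdown share of Tcf7l2 was 74.4% ± 17.2, and that of Lef1 was 3.97% ± 5.61 instead of 10.2% ± 3.21. The knockdown sums lay below the control sums in both sets.

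Shares within the TLE family moved with the set. Tle1 held 55.5% ± 6.23 of the new-set control sum and 55.5% ± 6.04 of the knockdown sum. First-set Tle3 led with 42.3% ± 7.84 in controls and 49.6% ± 5.17 in knockdown libraries, and Tle2 went from 6.54% ± 1.51 to 14.1% ± 1.36 (n = 2 and 2). Pygo2 held 82.5% ± 2.69 and 85.3% ± 2.31 of the BCL9/Pygo2 sum in new-set controls and knockdown libraries, against 41.02% ± 8.68 and 50.01% ± 14.03 in the first set. These shares carry no test.

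**Figure D5:**
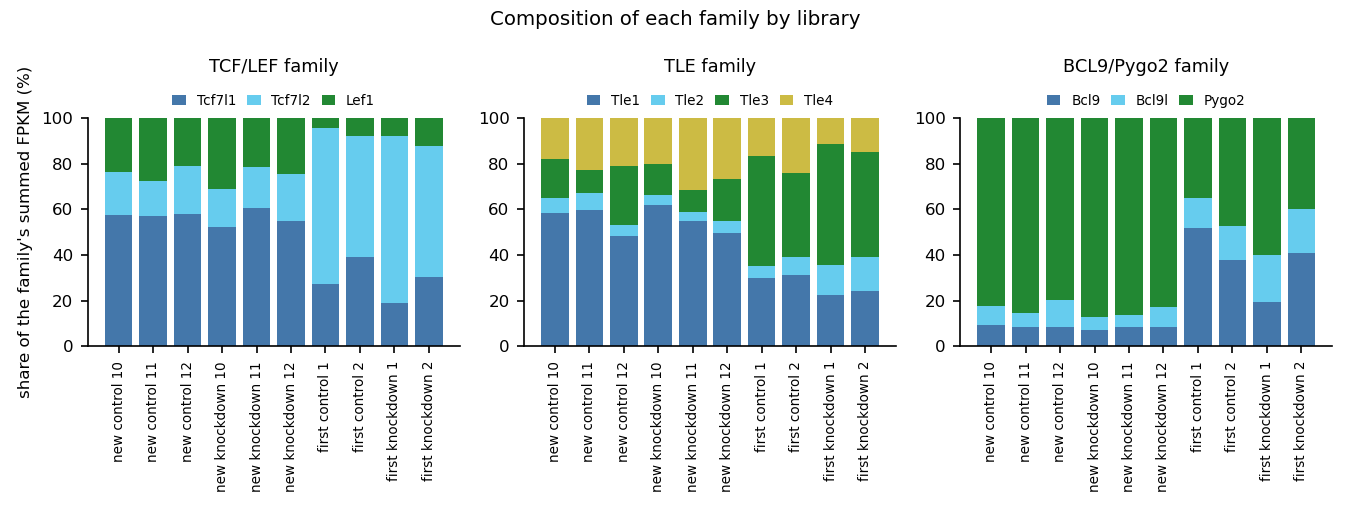
Share (%) of each member in the summed FPKM, as deposited, of its family in each of the 10 libraries, for the TCF/LEF, TLE and BCL9/Pygo2 families. Tcf7l1, Tle1 and Pygo2 take the largest parts in the new set, and Tcf7l2 and Tle3 lead their families in the first set.

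Another 35 nuclear Wnt genes were found by symbol, and 32 of them were tested. In the joined fit 5 fell, 2 rose and 25 did not pass (median −0.19, all genes −0.11). Of all genes in that fit 20.5% fell and 9.37% rose. Hdac1, a histone deacetylase that TLE complexes recruit, fell (−0.50, SE 0.0933, limma adjusted p = 0.0035), from 118 ± 13.6 to 60.3 ± 9.79 FPKM in the first set and with 90.02 ± 4.06 and 88.0 ± 4.05 FPKM in the new set. Crebbp, a histone acetyltransferase and coactivator of beta-catenin (−0.46, limma adjusted p = 0.0299), and Tbl1x, which helps beta-catenin onto targets (−0.39, 0.0358), also fell. Crebbp went from 20.1 ± 1.80 to 9.97 ± 0.820 FPKM in the first set and was at 9.84 ± 3.03 and 9.72 ± 0.749 FPKM in the new set. The fold changes of the sets differed for Hdac1 and Crebbp (limma adjusted p = 0.0043 and 0.0246), and for Tbl1x that difference did not pass (0.0838). Ldb1, a LIM-domain cofactor (0.30, limma adjusted p = 0.0191), and Smarca4, the ATPase of the BAF remodeler (0.42, 0.0287), rose. This count of 7 calls was 12 with the replicate block and 13 with the silent-gene level subtracted, but 3 with rescaled libraries. Of all genes 29.9% were called in the joined fit, 34.1% with the block, 35.4% with the subtraction and 25.4% after rescaling. Leaving out new-set knockdown 10 or 11 left 1 or 2, against 22.1% of all genes in either case. New-set control 12 left out gave 4, against 23.6%. Without a first-set library 1 is left in its group, so such counts are not given for these genes. In the new set 1 of the 32 fell, Cdk8 of the Mediator complex, against 5.15% of all genes. With the replicate block 5 were called there, against 21.7%. In the first set 3 of 32 fell by limma, Apc, Crebbp and Hdac1, against 10.7% of all genes. These, like Ctnnb1 below, were named after their values were seen. Ctnnb1, which codes for beta-catenin itself, was at 441 ± 48.3 and 451 ± 19.7 FPKM in the new set and at 175 ± 42.7 and 107 ± 14.9 FPKM in the first. Its joined fold change did not pass (−0.32, limma adjusted p = 0.0576).

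Upstream of the nucleus 29 of 46 genes were tested in the joined fit, where 20.5% of all genes fell and 9.37% rose. Of the 29, 10 fell, 1 rose and 18 did not pass (median −0.36, all genes −0.11). Those with the smallest p were Fam123b, a scaffold of the destruction complex (−0.63, SE 0.0988, limma adjusted p = 0.0017), and the kinase Gsk3b that marks beta-catenin for breakdown (−0.93, 0.00205). Dvl3, which relays the receptor signal (−0.53, 0.0038), the kinase Csnk1e (−0.46, 0.004) and the receptor Fzd3 (−0.67, 0.004) followed, each by limma adjusted p. Of these only Csnk1e had no difference between sets past the threshold (limma adjusted p = 0.162). Gsk3b was at 25.9 ± 1.3 and 27.3 ± 1.71 FPKM in the new set and at 342 ± 40.2 and 93.1 ± 42.3 FPKM in the first.

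Of 15 tested genes known as Wnt/beta-catenin targets, 7 fell, 3 rose and 5 did not pass in the joined fit (median −0.17). Among all genes there 20.5% fell and 9.37% rose (median −0.11). Nkd2, a feedback inhibitor, rose in the joined fit (1.21, SE 0.144, limma adjusted p = 0.000448). It went from 0.548 ± 0.0554 to 6.65 ± 1.92 FPKM in the first set and was at 1.01 ± 0.117 and 1.24 ± 0.416 FPKM in the new set. Its first-set controls averaged under 1 FPKM, so it was tested there only through the knockdown libraries. The new-set fold change did not pass (0.14, limma adjusted p = 0.588), and the sets differed (−2.14, 0.000847). Ccnd2, a G1 cyclin (−0.87, limma adjusted p = 0.00157), and the ephrin receptor Epha4 (−0.55, 0.00217) fell, with a difference between sets for both (0.00255 and 0.00655). Tnfrsf19, a receptor of the TNF family (−0.51, limma adjusted p = 0.00563), and the gap junction gene Gja1 (−0.83, 0.00575) fell as well. Gja1 went from 13.4 ± 0.54 to 8.06 ± 2.26 FPKM in the new set and from 13.3 ± 0.746 to 6.64 ± 3.17 FPKM in the first. Of the target genes 2 are also on the radial glia list and 1 on the intermediate progenitor list.

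Markers of progenitors and neurons moved beside these results. Of all genes tested in the new set 5.15% fell and 3.84% rose (median 0.02). For the first set it was 10.7% and 13.2% (median −0.15), and for the joined fit 20.5% and 9.37% (median −0.11). Of 20 radial glia markers 9 fell in the new set, 4 in the first and 12 in the joined fit, 0 rose (limma), and the medians were −0.41, −0.41 and −0.57. Their summed level was 1651 to 2098 FPKM in new-set controls and 1330 to 1940 FPKM in knockdown libraries, and 2138 to 2262 against 1180 to 2439 FPKM in the first set, so the sums overlapped. Of 25 neuron markers of the cortex 9 rose and 1 fell in the new set (median 0.49), while 0 rose and 9 fell in the first (median −0.57). Their sums went from 2998 to 3537 FPKM in new-set controls up to 4133 to 5014 FPKM in knockdown libraries, and from 5563 to 6212 FPKM in first-set controls down to 3864 to 4162 FPKM. Both lists had 0 markers at 0 in any group. Of 14 intermediate progenitor markers 4 fell and 0 rose in the new set, with sums of 1395 to 1518 FPKM in controls and 1133 to 1204 FPKM in knockdown libraries. The first set had 3 higher and 3 lower, and its sums of 880 to 977 and 861 to 1313 FPKM overlapped. Tcf7l1 and Tcf7l2 fell in the joined fit, where 12 of the 20 radial glia markers also fell. So did 5 of the 14 intermediate progenitor and 5 of the 25 neuron markers in that fit, and 2 of each of these lists rose. Tle4, which did not pass in either set without the replicate block, had the sign of the neuron list's median in both. The part of cell makeup in these results was not tested, and in such bulk samples fewer cells of a type and less RNA per cell cannot be told apart.

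Among markers of other cell types, 12 microglial genes summed to 4.72 to 10.8 FPKM in new-set controls and 2.11 to 7.64 FPKM in knockdown libraries, and to 4.74 to 8.499 against 18.5 to 31.0 FPKM in the first set. There 5 of 9 tested rose, against 13.2% of all first-set genes. These 5 each averaged at most 0.604 FPKM in controls. They reached the mean of 1 FPKM needed for a test only through the first-set knockdown libraries. These are the knockdown libraries where Tle2 was higher and where silent olfactory receptor genes averaged 0.672 and 0.557 FPKM each, a level contained in the marker sums too. Endothelial and pericyte genes, 14 in all, summed to at most 5.13 FPKM in the new set and to 13.2 to 21.7 FPKM in first-set controls and 17.4 to 23.9 FPKM in knockdown libraries. Of all genes tested 5.15% fell in the new set, and 23.8% were called in either direction in the first. Of the 12 GABAergic interneuron markers 7 were tested in the new set and 6 fell. Of those 6, Dlx2, Dlx5 and Lhx6 averaged under 1 FPKM in knockdown libraries, so they were tested only through their control level. The 12 summed to 46.8 to 52.8 FPKM in controls and 24.2 to 25.7 FPKM in knockdown libraries. Of the 10 tested in the first set 0 were called by limma (1 at an unadjusted p under 0.05), and the sums of 32.0 to 59.2 and 25.1 to 59.5 FPKM overlapped. In the joined fit 2 of 7 interneuron markers fell and 0 rose, against 20.5% and 9.37% of all genes. Tcf7l2 is known as abundant in thalamus. The 8 thalamic and diencephalic markers summed to 214 to 246 FPKM in new-set controls and 148 to 187 FPKM in knockdown libraries, most of it Lhx2, which the cortex also expresses. Of the 4 tested there, 3 fell, and 1 of these, Lhx9, averaged under 1 FPKM in knockdown libraries. First-set sums of 77.5 to 121 and 82.5 to 83.3 FPKM overlapped, and 0 of 3 tested were called by limma (0 at an unadjusted p under 0.05). In the joined fit, where Tcf7l2 was called, 1 of 3 of these markers fell, against 20.5% of all genes. Of 9 erythroid markers 5 were tested in the new set and 2 fell, with sums of 150 to 280 FPKM in controls and 23.6 to 115 FPKM in knockdown libraries. In the first set those sums were 16.6 to 19.0 and 1.44 to 43.4 FPKM. Whether any of these cells contributed to the values of the members was not tested.

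The genes closest to the 2 changed members over the 10 libraries, by Pearson's r of log2 values centred on the set mean, were Rhbdl3 (0.977), Psme3 (0.976) and Srsf6 (0.963) for Tcf7l1. For Tcf7l2 they were Xlr3b (0.948), Ranbp10 (0.946) and Peli2 (0.946). Tcf7l1 and Tcf7l2 themselves had an r of 0.851. All these points share the same libraries and the control and knockdown groups, and the highest values were picked from 10827 genes.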

How the data were processed

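Total RNA of GFP-sorted mouse cortical cells (Qiagen Rneasy Plus) was made into libraries with a low-input kit from Clontech, per the labels' protocols. TopHat2, Bowtie, Cufflinks 2.0.0, Cuffdiff and the build mm9 are named in the submitters' processing notes. For annotation, filters and strand the setting is not given in the sources used here. The authors deposited FPKM (fragments scaled by transcript length and library size), 1 column per library, in 2 tables of 23235 symbols made separately. The rows Tcf3 and Tcf4 are E proteins and not the older names of Tcf7l1 and Tcf7l2, so they were not used.

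Values were taken as log2(FPKM + 1), with a minimum mean of 1 FPKM, and fitted with limma 3.58.1 in R 4.3.3 (intensity trend, two-sided), per set (4 and 2 residual degrees of freedom) and jointly (6). The joined fit gave the mean of the fold changes of both sets and their difference. P-values were adjusted over all tested genes. The fits were also run on simulated data with independent noise. Those data held no raised olfactory receptor level in the knockdown group and no deviations shared by replicate number, so neither was tested. Replicates are separate pools of embryos per the design text. Relative depth is the commonest ratio between libraries among the lowest values.

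Deviations of same-numbered libraries from their group means correlated at 0.122, 0.242 and 0.193 across genes in the new set, every pair above 0.1. That is a hint of pairing from the data and not from the labels, so the main fits did not pair libraries. Only the replicate block, run as an alternative, did so. In the first set the correlation was −0.0285, and the block was run there too.

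The members and gene lists were chosen with earlier results of these data known. Named beside the members are the 5 genes of each Wnt list with the smallest joined p, and the 3 genes most like each member called in the joined fit. Alternatives were a pseudocount of 0.1, no filter, a minimum of 5 FPKM, median-of-ratios rescaling, subtraction of the olfactory receptor level, no trend, the replicate block and leaving out each library.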

Additional observations from a re-analysis of the deposited data

Results flagged for a closer look

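Tle2 is listed because its response differed between the sets, as did that of 32.5% of all genes tested in both. The new-set minus the first-set log2 fold change was −1.15 (limma adjusted p = 0.0104). It was lower in 2 of 3 replicate numbers of the new set and higher in both of the first set. The difference kept its sign and passed in all alternatives in which it could be fitted, from −0.93 to −1.53, with adjusted p from 0.00714 to 0.0412.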

How the results depend on the processing

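The number of changed members in the new set was 1 as reported, 0 with no filter on low values, 2 with the replicate block (Tcf7l1 and Tle4), and 0 to 2 when each library was left out. In the first set it was 0, against 23.8% of all genes called, and 1 (Tle2) after rescaling (20.1%) or without a trend (22.8%). In the joined fit it was 2, against 29.9% of all genes called, and 1 after rescaling (25.4%). It was 0 with a minimum mean of 5 FPKM (34.0%), under which neither Tcf7l1 nor Tcf7l2 was tested. Tcf7l2 was also lost without new-set knockdown 11 (22.1%). For the difference between sets it was 1, 0 at the minimum of 5 FPKM, where Tle2 was not tested, 2 with background subtraction or the replicate block, and 1 to 3 without single libraries. The block in both sets changed the call of no other member.

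Members near 0 changed sign. Rescaling gave 0.15 for Pygo2 in the first set, 0.00543, 0.0628 and 0.00392 for Tle1, Tle4 and Bcl9l in the joined fit, and −0.0974 and −0.0402 for the set differences of Tcf7l2 and Pygo2. Rescaling moved the first-set median of all genes from −0.146 to 0.00901. Background subtraction gave −0.0894 for Bcl9l in the first set. A pseudocount of 0.1 gave 0.00145 for first-set Pygo2 and −0.00428 for the Tcf7l2 difference. Without single libraries the ranges were −0.56 to 0.16 (Tle3) and −0.111 to 0.0756 (Bcl9) in the new set and −0.29 to 0.29 (Pygo2) in the first. In the joined fit they were −0.11 to 0.25 (Tle3), −0.16 to 0.15 (Tle4), −0.175 to 0.0477 (Bcl9l) and −0.0808 to 0.208 (Pygo2), and for the differences −0.26 to 0.81 (Tcf7l1), −0.12 to 0.25 (Tcf7l2) and −0.16 to 0.42 (Pygo2). The causes were not tested.

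With 1 library left in a first-set group, it was assumed to vary like the other group. Over all genes, 1015 were called in the new set, 2452 with the replicate block, 470 with no filter and 88 to 1883 without single libraries. For the first set it was 2971, and 713 to 1247. Without the filter the joined fit called 5917 (3238 as reported) and the difference 6345 (3520). Rescaling moved the share of calls that were higher from 55.2% to 74.4% in the first set, 31.3% to 46.6% in the joined fit and 69.3% to 51.7% for the difference. The block in the new set only, chosen after seeing the data, left 2 members called in the joined fit and 1 for the difference. Of all genes 26.5% and 28.9% were called there.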

Other observations

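The summed FPKM of the 4 TLE genes divided by that of the 3 TCF/LEF genes was higher in knockdown libraries of both sets. It was 3.79, 3.401 and 3.005 in new-set controls and 4.55, 6.23 and 6.33 in knockdown replicates 10, 11 and 12, and 2.29 and 1.54 in first-set controls against 3.64 and 3.08 in knockdown libraries. The ratio was formed from the members after earlier results were known and has no test. Aes and Pygo1 were picked after their values were seen. Aes, the shortened TLE protein that lacks the WD repeats, was far above the other TLE genes, at 229 ± 17.5 and 243 ± 5.04 FPKM in new-set controls and knockdown libraries (SD, n = 3 and 3) and at 39.8 ± 4.33 and 34.4 ± 8.70 FPKM in the first set (n = 2 and 2). Its fold change did not pass in either set (limma adjusted p = 0.525 and 0.532). Pygo1, the relative of Pygo2, was higher in all new-set knockdown libraries (14.5 ± 0.869 to 15.8 ± 0.306 FPKM) and lower in both of the first set (3.53 ± 0.266 to 2.18 ± 0.0643 FPKM). Its difference between sets passed (0.63, limma adjusted p = 0.0268).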
